A study of Mus musculus with 11 samples.

Results

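The baseline transcriptome of mouse granulosa cells given a control siRNA was described from the 3 libraries of the series that carry the scrambled-siRNA label, out of 11 samples. The cells were primary ovarian granulosa cells of the RjOrl:SWISS background. They were transfected in 6-well plates with 30 pmol of a nontargeting siRNA (scramble) by the lipid reagent Lipofectamine RNAiMax. The transfection mix was removed at 5 h, the cells grew for 25 h more, and RNA was taken at 30 h. The other 8 samples received siRNAs against Akt1 and were not analysed here. Neither untransfected cells nor freshly isolated cells were examined, so every level below is that of cultured, transfected cells. The labels give no age, no number of animals and no hormone treatment, and they do not say whether the replicates were separate cultures. The spread between replicates may therefore be partly technical.

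Granulosa cells are the somatic cells that line the ovarian follicle and nurse the oocyte. They answer follicle-stimulating hormone (FSH), convert androgen to oestrogen by aromatase, and secrete inhibin, which lowers FSH release from the pituitary. After the luteinizing hormone (LH) surge they luteinize: they stop dividing, take up cholesterol and make progesterone. Progesterone synthesis runs from cholesterol delivery to the inner mitochondrial membrane by Star, through side-chain cleavage by Cyp11a1, to the oxidation of pregnenolone by Hsd3b enzymes. The factors Nr5a1 (SF-1) and Nr5a2 (LRH-1) bind the promoters of many of these genes.

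Depth was 32643158, 27143891 and 23851293 counts in genes in replicates 1, 2 and 3, the order in which values for the libraries are given throughout. CPM is the count of a gene scaled to a common library total in genes (counts per 1e6). A gene was called expressed where it reached 1 CPM in each of the 3 libraries, which 12150 of 24490 genes (49.6%) did, and 6696 genes had no count in any of them. Every count of expressed list members below is to be read beside that 49.6%. Levels of different genes were compared as TPM, which also divides by the exonic length of the gene before scaling. Orders by CPM rank genes by the reads they took, which also rise with length. Errors are SDs over the 3 libraries. Akt1, the gene targeted elsewhere in the series, was at 529, 428 and 399 CPM in these controls.

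Replicate 1 stood apart from replicates 2 and 3, so many results are given with all 3 values or with those of replicates 2 and 3. Others are given only as a mean ± SD over the 3 libraries, into which replicate 1 enters. Such a mean can lie at a level that no library had, as for Igf2r at 36.6, 133 and 140 TPM (103 ± 58). Over the expressed genes the Pearson correlation of log2 CPM was 0.997 between replicates 2 and 3, 0.923 between 1 and 2, and 0.914 between 1 and 3. Between replicates 2 and 3 only 2 genes differed more than 2-fold, against 2399 genes (19.7%) between replicates 1 and 2. Replicates 2 and 3 differed by more than counting noise, with a chi-square per degree of freedom of 7.1 over 12150 genes, which says only that they are not 1 library deposited again. Replicate 1 favoured short genes. In 5 equal classes of exonic length, the median log2 ratio of replicate 1 to the mean of replicates 2 and 3 was 0.80, 0.30, −0.03, −0.33 and −0.80 from the shortest class (median 1845 bases) to the longest (median 10116 bases). It also favoured GC-rich transcripts, with medians from −0.34 in the fifth of genes with the lowest GC content to 0.36 in the fifth with the highest. These classes differ in length too, with a median of 5841 bases in the lowest and 3438 in the highest. The median log2 ratio of replicate 2 to replicate 3 also rose with GC content, from −0.10 to 0.11. Ribosomal protein genes, which are short, took 1.47% of the reads of replicate 1 against 0.612% and 0.587%. Dividing by length does not remove this difference, so a TPM from replicate 1 carries it too. Whether RNA quality or library preparation had a part in it was not tested.

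**Figure D1:**
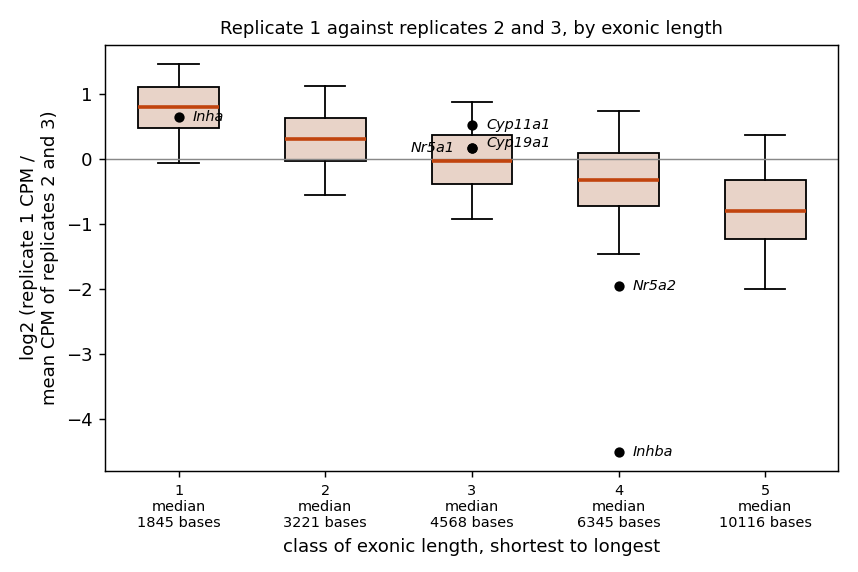
Replicate 1 against replicates 2 and 3 by exonic length. The y axis is the log2 ratio of replicate 1 CPM to the mean CPM of replicates 2 and 3 for 12097 expressed genes with a length, the x axis 5 equal classes of length. Boxes span the quartiles with the median in red, whiskers the 5th to 95th percentiles, and the labelled points are Inha, Cyp11a1, Cyp19a1, Nr5a1, Nr5a2 and Inhba. The medians fall from 0.80 to −0.80, and Inhba (−4.51) and Nr5a2 (−1.95) lie below the whiskers of their class.

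All 5 markers used to check the cell type (Inha, Cyp11a1, Cyp19a1, Nr5a1 and Nr5a2) were expressed, at levels that spread over 3 orders of magnitude. Inha (chromosome 1, 75507077 to 75510366, plus strand, mm10) encodes the inhibin alpha subunit. It was at 3486, 2356 and 2128 CPM, or 6899 ± 742 TPM (n = 3). In TPM it was the 2nd highest gene over the 3 libraries and the highest over replicates 2 and 3. Cyp11a1 (chromosome 9, 58006411 to 58027023, plus strand), the side-chain cleavage enzyme, was at 3437, 2433 and 2369 CPM and ranked 10th of all genes by mean CPM. Nr5a1 (chromosome 2, 38692656 to 38714542, minus strand) was at 172, 163 and 143 CPM, close to the same level in each library. Nr5a2 (chromosome 1, 136842571 to 136960448, minus strand) was at 136 and 141 CPM in replicates 2 and 3 but at 35.9 CPM in replicate 1. Cyp19a1 (chromosome 9, 54165937 to 54268110, minus strand), which encodes aromatase, was at only 3.22, 2.69 and 3.06 CPM, from 105, 73 and 73 counts. In replicates 2 and 3 the mean TPM of Inha was 6499 and that of Cyp19a1 2.72.

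Of the 23 genes in a wider list of granulosa markers, 20 (87%) were expressed, against 49.6% of all genes. In these bulk samples, fewer cells of a type and less RNA per cell cannot be told apart. The median TPM of those 20 was 62.4, 135 and 130, beside 24.2, 33.2 and 33.3 over all expressed genes. The 6 highest were Inha, Cyp11a1, the protease inhibitor Serpine2 (655 ± 39.7 TPM), the gap junction protein Gja1 (431 ± 120), the Kit ligand Kitl (394 ± 211) and the oestradiol-forming enzyme Hsd17b1 (289 ± 35.5). Foxl2, the transcription factor that maintains granulosa identity, was at 203, 142 and 142 CPM. Amhr2, the receptor for anti-Müllerian hormone, was at 137, 83.2 and 83.9 CPM. The 3 markers below the threshold were Amh, Fshr and Nr0b1. Amh had 27, 11 and 5 counts and Fshr, the FSH receptor, 8, 5 and 2 counts. Nr0b1 (DAX-1), a corepressor of Nr5a1, had 0 counts in all 3 libraries, which allows at most 0.0359 CPM over the group. Amh, Nr0b1, Foxl2 and Amhr2 are picked out here after their values were seen. Most markers of the granulosa label were thus expressed. The FSH receptor and aromatase, which serve the FSH response, were near the floor and low. By the same threshold 91.7% of stroma, 81.8% of surface epithelium and 75% of smooth muscle markers were expressed, so this share does not set granulosa cells apart. The expressed smooth muscle markers also had a higher median than the granulosa markers, of 266, 264 and 214 TPM.

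**Figure D2:**
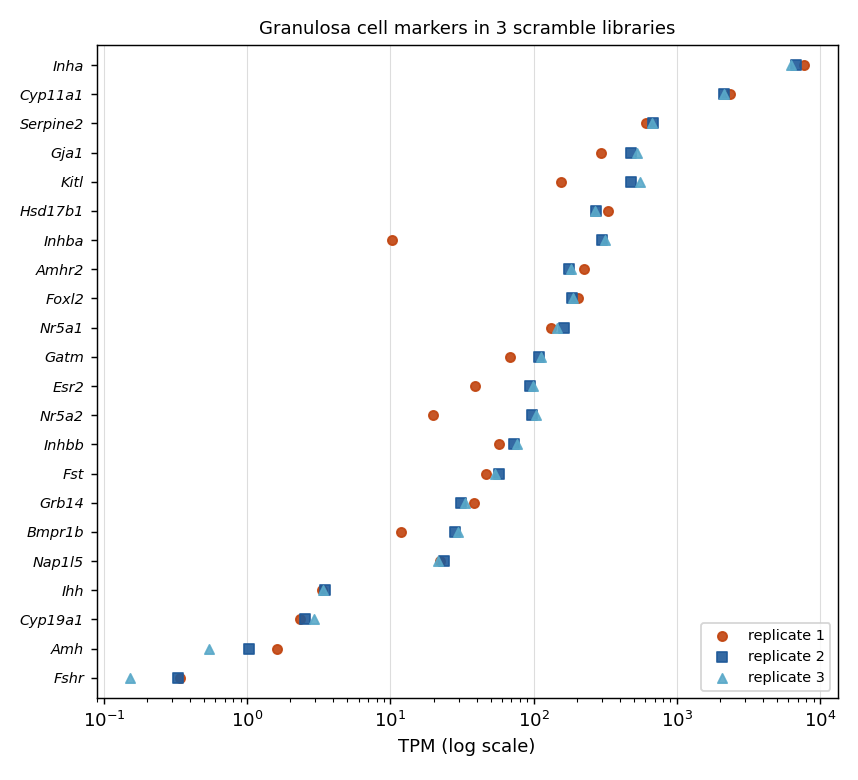
Levels of 22 of the 23 granulosa markers in each scramble library, in TPM on a log axis, with 1 symbol per library and genes ordered by mean TPM. Nr0b1 is left out because it had 0 counts. Inha lies at the top at 6899 TPM, Cyp19a1, Amh and Fshr lie at the bottom, and Inhba and Nr5a2 show the widest gap between replicate 1 and the other libraries.

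The transcripts with the most reads encoded matrix, lipid and cytoskeletal proteins along with steroidogenic and secreted granulosa products. By mean CPM the 20 highest genes were Col4a1, Clu, Scd2, Aldh1a1, Actb, Sparc, Fn1, Vim, Ephx2, Cyp11a1, Eef1a1, Col4a2, Inha, Flna, Hsp90ab1, Eef2, Tmsb4x, Ctsb, Rn45s and Acta2. Col4a1, a basement membrane collagen chain, led with 2958, 5382 and 5346 CPM. Clu, the secreted chaperone clusterin, followed with 5961, 3858 and 3614 CPM, so that it took more reads than Col4a1 in replicate 1 and fewer in replicates 2 and 3. Scd2, a stearoyl-CoA desaturase, was at 3213, 4818 and 4561 CPM. Aldh1a1, which makes retinoic acid from retinal, was at 4450, 3644 and 3570 CPM. Ephx2, the soluble epoxide hydrolase, was at 3528, 2381 and 2493 CPM. The long Fn1 transcript, fibronectin, had 1739 CPM in replicate 1 and 4544 and 4370 CPM in the others. Rn45s, ribosomal precursor RNA that poly(A) selection should leave behind, was at 4430, 1461 and 957 CPM, with a mean of 2283 CPM that fell to 1209 CPM without replicate 1. No single gene dominated: the 100 highest held 18.1%, 16.5% and 16.4% of the reads, and 50 genes passed 1000 CPM in each library.

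By mean TPM the 20 highest genes were Lgals1, Inha, Tmsb4x, Actb, S100a6, Ftl1, Clu, Rplp1, Ephx2, Eef1a1, Sparc, Acta2, Mir682, Hsd3b1, Serpinh1, Hsp90ab1, Scd2, Aldh1a1, S100a11 and Eef2. Short transcripts lead here, and their order rests partly on replicate 1. Lgals1, the sugar-binding protein galectin-1, was at 10992, 5972 and 5478 TPM, and the small calcium-binding protein S100a6 at 8388, 3733 and 4220 TPM. Over replicates 2 and 3 the order began with Inha, Lgals1, Actb, Tmsb4x and Clu. Hsd3b1 stood 14th over the 3 libraries and 12th over replicates 2 and 3. Mir682 is annotated over 96 bases, barely more than a read of 75 bases, so its 3785 ± 2285 TPM is not comparable with that of whole mRNAs.

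Of the genes of progesterone synthesis, Cyp11a1 and Hsd3b1 were among the most abundant in these cells, ranked 10 and 39 by mean CPM. Others ranked lower, Star at 257, Fdx1 at 386, Fdxr at 1402 and Tspo at 2540. Cyp17a1 and Cyp19a1, which form androgen and oestrogen, were scarce. Of 27 steroid synthesis genes in the files, 19 (70.4%) were expressed, with a median of 224, 188 and 199 TPM. Cholesterol entry was represented by Star, the mitochondrial cholesterol carrier, at 452, 491 and 523 CPM, and by Tspo, an outer mitochondrial membrane protein, at 154, 74.5 and 68 CPM. The electron donors of mitochondrial P450 enzymes were both expressed: the ferredoxin Fdx1 was at 519, 310 and 291 CPM and its reductase Fdxr at 222, 124 and 121 CPM. Hsd3b1, which makes progesterone, was at 1913, 1469 and 1524 CPM. In TPM it was the highest of the list (3420 ± 112), above Cyp11a1 (2202 ± 112) in each library. In CPM Cyp11a1 was the higher in each library, at 3437, 2433 and 2369 CPM. The TPM order thus rests on the exonic lengths used, 1855 bases for Hsd3b1 and 4804 for Cyp11a1, which are the same for all 3 libraries. The related Hsd3b6 had 19, 19 and 8 counts, although reads shared by such near-identical paralogs cannot be separated in these counts.

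Later steps of the pathway divided sharply by level. Cyp17a1, the theca enzyme that opens the route to androgen, had 15, 4 and 3 counts and was not expressed. Aromatase stayed near 3 CPM as given above. Hsd17b1, which reduces oestrone to oestradiol, was nevertheless expressed at 136, 85.6 and 82.8 CPM. The other 17-beta-hydroxysteroid dehydrogenases were Hsd17b12 (316 ± 16.7 TPM), Hsd17b4 (149 ± 17.2 TPM) and Hsd17b7 (19.8, 61 and 58.1 TPM). All of these also act in lipid or sterol metabolism. Hsd17b3, the testicular androgen-forming enzyme, had 3 counts in replicate 1 and none in the others. Akr1c18, which inactivates progesterone to its 20-alpha-hydroxy form, was at 83.1, 48 and 44.3 CPM, and Akr1c14, a 3-alpha-hydroxysteroid dehydrogenase, at 96.6, 131 and 149 CPM. Reads of the related Akr1c genes may be shared between them. Srd5a1, a steroid 5-alpha-reductase, was at 5.64, 4.97 and 5.03 CPM, and Srd5a2 had 0 counts.

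The glucocorticoid and oestrogen-handling enzymes gave the same split between present and near absent. Hsd11b2, which inactivates glucocorticoids, was at 105, 80.3 and 65 CPM, while Hsd11b1, which regenerates them, had 9, 6 and 4 counts. Among adrenal enzymes Cyp11b1 was just over the threshold at 1.07, 1.18 and 1.22 CPM, and Cyp11b2 and Cyp21a1 had 0 counts. Cyp1b1, which hydroxylates oestrogens, was at 190, 307 and 331 CPM, and the oestrogen sulphotransferase Sult1e1 had 14, 10 and 4 counts. Por, the electron donor of microsomal P450 enzymes, was at 314, 264 and 243 CPM.

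**Figure D3:**
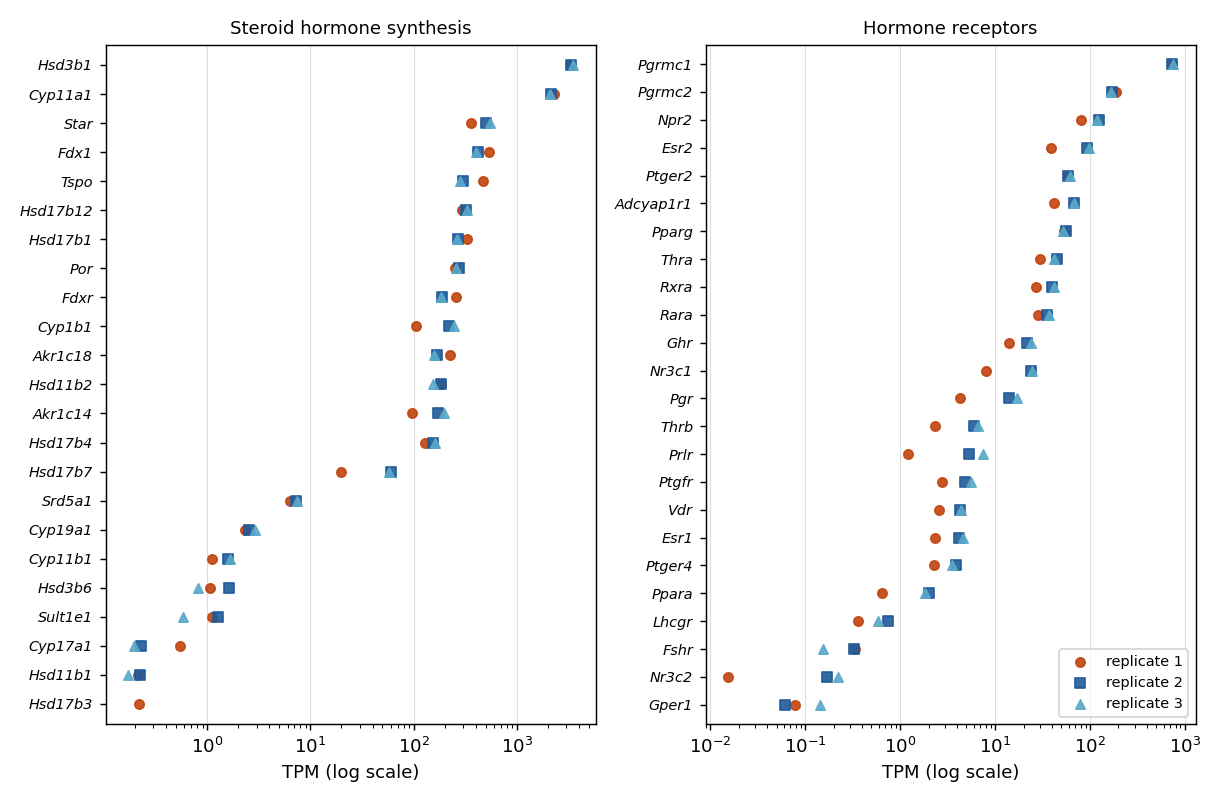
Steroid synthesis genes (left) and hormone receptors (right) in each scramble library, in TPM on a log axis, with genes ordered by mean TPM and 1 symbol per library. Values of 0 are not drawn, so Srd5a2, Cyp11b2 and Cyp21a1 are left out and Hsd17b3 has 1 symbol, and 1 further member of each list is not drawn. Hsd3b1 and Cyp11a1 lie above 2000 TPM in every library, and Cyp19a1, Cyp17a1, Fshr and Lhcgr lie below 3 TPM.

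All 14 genes listed for cholesterol supply were expressed, with a median of 55.8, 89.4 and 92.1 TPM. The storage enzyme Soat1, which esterifies cholesterol, was at 825, 1261 and 1442 CPM. The synthesis gene Hmgcs1 was at 460, 611 and 599 CPM, and the HDL receptor Scarb1 at 295, 279 and 257 CPM. Npc2, which carries cholesterol out of lysosomes, was at 438, 248 and 248 CPM. The 14 genes are long (median exonic length 7888 bases), and 10 of them were lower in replicate 1 than in the mean of replicates 2 and 3, where 48.3% of all expressed genes were. Their median log2 ratio was −0.68, and 0.06 after the median of its length class was taken off each gene.

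Of 28 peptide hormones and local ligands, 25 were expressed. The inhibin and activin subunits differed in level: the alpha subunit Inha was far above the beta subunits Inhba (301 and 314 TPM in replicates 2 and 3) and Inhbb (68.6 ± 10.1 TPM). Inhba was at 454 and 464 CPM in replicates 2 and 3 and at 20.2 CPM in replicate 1, a log2 ratio of −4.51 where the median of its length class was −0.33. The activin-binding protein follistatin, Fst, was steady at 65.8, 61.7 and 56.7 CPM. Kitl, which acts on Kit in the oocyte and theca, was at 281, 666 and 753 CPM. Wnt4, needed for ovarian development, was at 251, 127 and 128 CPM, Tgfb3 at 107, 119 and 108 CPM, and Igf1, which amplifies FSH action, at 179, 247 and 268 CPM. Fgf2, Areg and Amh were below the threshold. Fgf2 missed it through replicate 1 alone, at 0.98, 5.12 and 5.28 CPM. Inhbb, Fst and Fgf2 are named after their values were seen.

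A list of 25 genes of ovulation and the corpus luteum, some of them induced by the LH surge, had 21 expressed members (84%) in these cells, for which the labels record no hormone treatment. Sfrp4, a secreted Wnt-binding protein of luteal cells, was highest at 1917, 1513 and 1497 CPM. Ptgs2, which makes the prostaglandin precursor needed for follicle rupture, was at 191, 392 and 388 CPM, and the prostaglandin E synthase Ptges at 135, 119 and 115 CPM. The transcription factor Cebpb, which is needed for luteinization, was at 125, 59.2 and 57.3 CPM, and the membrane protein Parm1 at 130, 366 and 339 CPM. Areg, Sult1e1 and Snap25 were below 1 CPM in every library. Lhcgr missed the threshold through replicate 1 alone, at 0.858, 1.36 and 1.05 CPM.

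The gonadotropin receptors were low, Fshr near the floor and Lhcgr close to the threshold, while several other receptor families were well represented. Of 25 hormone receptors, 20 (80%) were expressed, with a median of 20.4, 29.6 and 30.9 TPM, which was below the median of all expressed genes in each library. Fshr was below 0.25 CPM in every library, and the LH receptor Lhcgr, with 28, 37 and 25 counts, was close to 1 CPM. The prolactin receptor Prlr, which sustains the corpus luteum in rodents, was at 5.67, 19.5 and 26.6 CPM, and the growth hormone receptor Ghr at 39, 46.8 and 49.9 CPM. The receptor Adcyap1r1 for the peptide PACAP was at 83.9, 107 and 104 CPM. Npr2, through which natriuretic peptide C holds the oocyte in meiotic arrest, was at 115, 139 and 129 CPM.

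Among steroid receptors the order of levels was led by the oestrogen receptor of granulosa cells. Esr2 was at 39, 93.9 and 98.2 TPM (77.1 ± 33). Esr1, the form of theca and stroma, was at 2.34, 4.21 and 4.63 TPM (3.73 ± 1.22), below Esr2 in every library. The glucocorticoid receptor Nr3c1 was at 8.14, 23.8 and 24.7 TPM (18.9 ± 9.3). The progesterone receptor Pgr was at 4.23, 13.9 and 17 TPM (11.7 ± 6.67), below Nr3c1 in each library. The mineralocorticoid receptor Nr3c2 had 1, 7 and 8 counts, and the membrane oestrogen receptor Gper1 had 2, 1 and 2 counts. The haem-binding membrane proteins Pgrmc1 (740 ± 14.4 TPM) and Pgrmc2 (176 ± 12.8 TPM), linked to progesterone signalling, were the highest of the list.

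Of the remaining nuclear receptors, the fatty acid receptor Pparg was at 53.9 ± 1.64 TPM, the thyroid hormone receptor Thra at 38.8 ± 7.83 TPM, the retinoid receptors Rxra and Rara at 36.1 ± 8.08 and 33.5 ± 4.8 TPM, Thrb at 4.99 ± 2.3 TPM and the vitamin D receptor Vdr at 3.75 ± 0.996 TPM. Ppara, with 25, 50 and 39 counts, missed the threshold in replicate 1. The prostaglandin receptors were led by Ptger2 (59.7 ± 1.57 TPM), followed by Ptgfr (4.37 ± 1.42 TPM) and Ptger4 (3.22 ± 0.834 TPM).

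Growth factor receptors, mostly long genes, were expressed in 26 of 29 cases. Axl, the receptor of the ligand Gas6, stood above the rest at 1504, 2124 and 2083 CPM (1516 ± 470 TPM). The collagen receptor Ddr1 followed at 516, 626 and 579 CPM, then the ephrin receptor Epha2 (191 ± 57.6 TPM). Igf2r (36.6, 133 and 140 TPM), Notch2 (24.7, 84.1 and 86.3 TPM) and the hepatocyte growth factor receptor Met (20.3, 51.9 and 58.9 TPM) came next. Kit, the receptor for the abundant Kitl, was below the threshold at 30, 23 and 29 counts, a gene picked out after its values were seen. Of the 26 expressed receptors 25 were lower in replicate 1 than in the mean of the other 2 libraries, where 48.3% of all expressed genes were. The median exonic length of the 26 was 8676 bases. After the median of its length class was taken off each gene, the median log2 ratio was −0.46.

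All 13 receptors of the TGF-beta family were expressed. The type I receptor Tgfbr1 was at 208, 461 and 525 CPM and the type II receptor Tgfbr2 at 111, 166 and 175 CPM. The BMP receptors Bmpr1a and Bmpr2 were at 141, 284 and 316 CPM and at 175, 500 and 584 CPM. Acvr1, an activin receptor-like kinase that also serves BMPs, was at 33.5, 47.7 and 53.5 CPM. Amhr2 had a higher value in replicate 1, whereas these 5 receptors had lower ones. Of the 13 receptors 10 were lower in replicate 1 than in the mean of replicates 2 and 3, where 48.3% of all expressed genes were. Their median log2 ratio was −0.97, and −0.70 after the median of its length class was taken off each gene.

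Structural matrix genes held more of the reads than any other list described here. Their 36 members took 2.01%, 3.34% and 3.26% of the counts, and 35 were expressed, with a median of 108, 241 and 255 TPM. The basement membrane collagen Col4a1 led by reads, and its partner chain Col4a2 was at 1884, 3158 and 3065 CPM. Sparc, a collagen-binding glycoprotein of basement membranes, was highest in TPM (3911 ± 202) and close in all 3 libraries. Thrombospondin 1, Thbs1, was at 841, 2502 and 2536 CPM, and the fibrillar collagen chain Col1a1 at 1171, 1651 and 1526 CPM. The link protein Hapln1, which stabilizes the hyaluronan matrix of the expanding cumulus, had 0 counts and was picked out for that. Of the 35 expressed genes, 32 were lower in replicate 1 than in the mean of replicates 2 and 3, where 48.3% of all expressed genes were. The 35 are long, with a median exonic length of 8326 bases. Their median log2 ratio was −0.72, and −0.40 after the median of its length class was taken off each gene.

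Matrix enzymes and inhibitors were shorter and closer between libraries, and their median of 313, 533 and 535 TPM was the highest of the lists described here. Of 25 genes, 24 were expressed. The collagen chaperone Serpinh1 (HSP47) was at 2392, 1985 and 1886 CPM and the prolyl hydroxylase subunit P4hb at 1541, 1190 and 1187 CPM. The lysosomal proteases Ctsb and Ctsd were at 2780, 2125 and 2055 CPM and at 1511, 997 and 944 CPM. The metalloproteinase inhibitor Timp1 was at 483, 209 and 183 CPM, and the plasminogen activator Plau, which granulosa cells release around ovulation, at 479, 450 and 491 CPM.

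Integrins, the cell's matrix receptors, were expressed in 14 of 17 cases. The beta 1 chain Itgb1, which pairs with most alpha chains, was at 1158, 1485 and 1576 CPM, and Itgb5 at 1125, 842 and 846 CPM. The alpha chains in order of mean TPM were Itga5 (388 ± 70.6), the fibronectin receptor chain, then Itga3 (155 ± 46.7), Itgav (130 ± 70.3) and the laminin receptor chain Itga6 (72.9 ± 32.6). Itga2, a collagen receptor chain named after its values were seen, was at 89.6 and 92 CPM in replicates 2 and 3 and at 5.73 CPM in replicate 1.

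**Figure D4:**
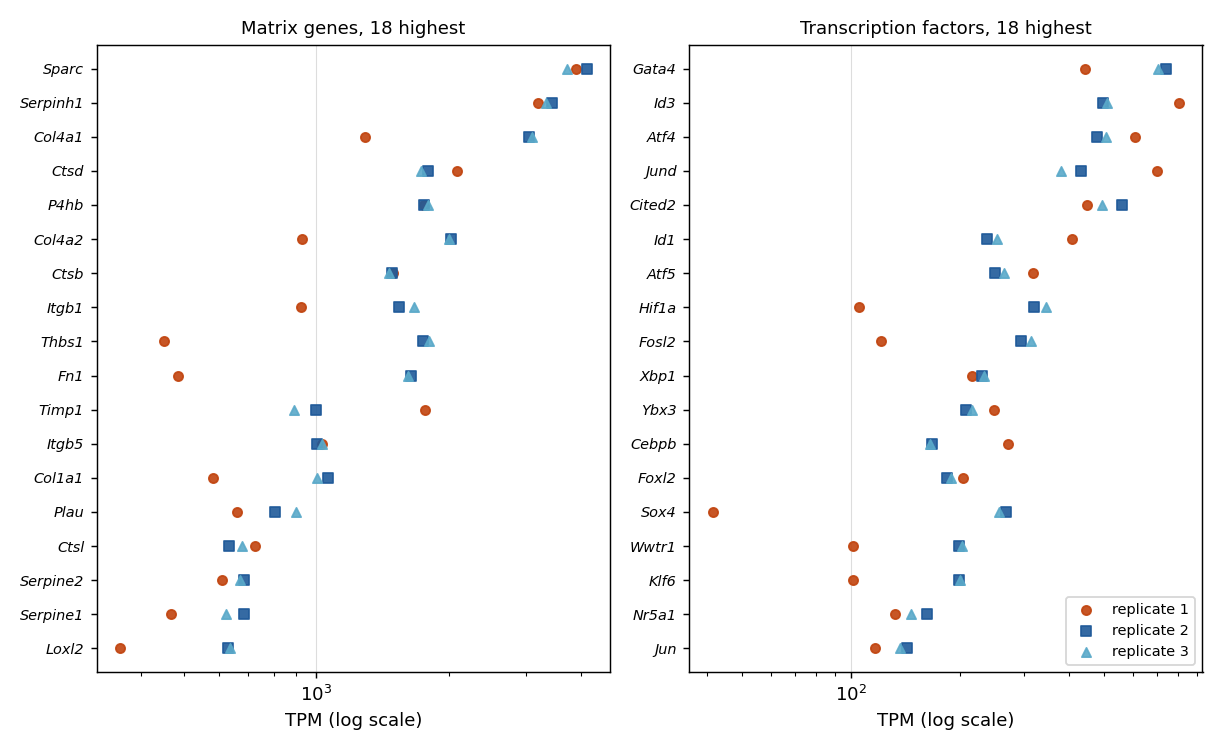
The 18 matrix genes (left; structural genes, enzymes, inhibitors and integrins) and the 18 transcription factors (right) with the highest mean TPM in the scramble libraries, on log axes, with 1 symbol per library. Replicates 2 and 3 lie side by side in nearly every row, while replicate 1 is lower for long genes such as Fn1, Thbs1 and Col4a1 and for Hif1a and Sox4, and higher for short ones such as Timp1, Id3 and Jund.

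Of 29 transcription factors with known roles in the ovary, 27 were expressed, with a median of 16.4, 31.4 and 31.2 TPM. Gata4, which binds the promoters of Star and the inhibin genes, was highest at 529, 684 and 635 CPM (629 ± 163 TPM). Next came the coactivator Cited2 (499 ± 56 TPM), the cold-shock domain factor Ybx3 (224 ± 21.1), Cebpb (201 ± 60.5) and Foxl2 (192 ± 9.66). Sox4, an SRY-related factor, was at 302 and 284 CPM in replicates 2 and 3 and at 61 CPM in replicate 1. Among the nuclear receptors of steroidogenic cells, Nr5a1 (132, 162 and 146 TPM) was above Nr5a2 in all 3 libraries (19.8, 97.4 and 104 TPM), but by 6.7-fold in replicate 1 and by 1.7-fold and 1.4-fold in replicates 2 and 3. In CPM, given above, both genes were closer in each library, and nearly equal in replicate 3, so these ratios rest partly on the exonic lengths used. Foxo3, a forkhead factor named after its values were seen, was at 6.03, 43 and 40.4 CPM.

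Among 42 broadly acting transcription factors 41 were expressed, with a median of 63.3, 96.2 and 92.5 TPM. The inhibitors of differentiation Id3 (603 ± 174 TPM) and Id1 (299 ± 94.5), which BMP signals induce, and the stress factors Atf4 (531 ± 68.6) and Atf5 (277 ± 36.1) led the list along with Jund (503 ± 171) and the hypoxia factor Hif1a (256 ± 131). By mean CPM the 10 highest factors of both lists were Gata4, Fosl2, Tead1, Hif1a, Atf4, Cited2, Id3, Jund, Sox4 and Srebf2. The AP-1 member Fosl2 was at 360, 673 and 700 CPM, the Hippo pathway factor Tead1 at 183, 484 and 521 CPM, and Srebf2, which drives cholesterol synthesis genes, at 144, 262 and 232 CPM.

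Genes of the cell cycle were expressed in 20 of 20 cases, those of division and those of arrest alike. The kinase Cdk4 was at 527, 331 and 316 CPM and its partner cyclin Ccnd2, an FSH target in granulosa cells, at 372, 1012 and 966 CPM. The mitotic kinase Cdk1 was at 233, 143 and 144 CPM and Ccna2, the S-phase cyclin, at 132, 121 and 129 CPM. The inhibitor Cdkn1a (p21) was at 438, 346 and 317 CPM, and the antiproliferative gene Btg2 at 185, 180 and 176 CPM.

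All 12 genes of the PI3K and AKT pathway were expressed. The AKT kinase Akt1 was at 428 ± 12.4 TPM and Akt2 at 31.2 ± 2.54 TPM, and their values did not overlap. The AKT substrates Gsk3a and Gsk3b were at 126, 97.7 and 93 CPM and at 83.8, 174 and 189 CPM. The PI3K catalytic subunit Pik3ca was at 73.5, 99.4 and 118 CPM and the mTOR inhibitor Tsc2 at 77.3, 115 and 107 CPM. Akt2 was named with its values known.

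Markers of other ovarian cell types fell into those near 0 and those well above it. Oocyte RNA was close to absent. Of 18 oocyte markers 1 was expressed, Ddx4, a germ cell helicase, at 6.28, 4.79 and 4.53 CPM. The oocyte growth factor Gdf9 had 53, 31 and 19 counts, the egg chaperone Npm2 30, 10 and 12, Ooep 11, 2 and 5, and the oocyte transcription factors Sohlh1 and Nobox 7, 2 and 1 and 6, 1 and 3. Figla, Oog1, Zar1, Pou5f1 and Tcl1 had 0 counts in all 3 libraries. Without replicate 3 there were 2 expressed oocyte markers. The 18 markers together summed to 9.8, 6.71 and 6.29 CPM.

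Immune, red cell and fat cell markers were also scarce. Of 14 immune markers, 1 was expressed, the lysosomal protein Cd68 (5.79, 3.68 and 4.61 CPM), which other phagocytic cells also make, and the list summed to 11.2, 7.29 and 8.39 CPM. Without replicate 3 there were 3 expressed immune markers. The monocyte genes Cd14, Lyz2 and Csf1r had 49, 34 and 23, 34, 8 and 16, and 53, 32 and 23 counts, and Fcer1g and the complement gene C1qb had 7, 5 and 2 and 7, 4 and 5. No erythroid marker was expressed: Alas2 had 32, 19 and 17 counts, and the globin genes Hba-a1, Hba-a2, Hbb-bs and Hbb-bt had none, although reads of the near-identical globin copies may not have been assigned. Of 6 adipocyte markers Fabp4 was expressed (6.25, 2.14 and 3.1 CPM), Retn had 7, 3 and 1 counts, Adipoq 2, 0 and 1, Lep 0, 0 and 1, and Plin1 and Cfd had none.

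Endothelial markers summed to 56.7, 52.8 and 47 CPM, and 5 of 12 (41.7%) were expressed, near the 49.6% of all genes. Over 50% of that sum was Eng (29.1, 29.4 and 25.9 CPM), a TGF-beta coreceptor that other cells also carry. Egfl7 and the sialomucin Emcn were at 11.2, 5.53 and 5.37 CPM and at 9.83, 6.15 and 5.74 CPM, the junction protein Esam had 72, 50 and 34 counts, and the VEGF receptor Kdr was at 2.05, 6.15 and 4.86 CPM. Pecam1 had 29, 33 and 30 counts. Without replicate 1, 7 of the 12 endothelial markers passed the threshold, while all expressed genes numbered 12399 instead of 12150. Some defining genes of the endothelium, looked at after their values were seen, were at or near 0: Cdh5 had 3, 7 and 10 counts, Vwf 0, 2 and 0 and Tie1 2, 0 and 0.

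Of 10 theca markers 5 (50%) were expressed, near the 49.6% of all genes, and 1 of these, Aldh1a1, made up 98.8%, 97.3% and 97% of the list's 4505, 3746 and 3680 CPM. The defining steroidogenic theca genes were near 0: Cyp17a1 was described above, Insl3 had 1 count in each library, and the Hedgehog-interacting protein Hhip had none. Pdgfra, a growth factor receptor of mesenchymal cells, was at 31.7, 57.4 and 65.2 CPM, the Hedgehog receptor Ptch1 at 16.1, 38.6 and 39.3 CPM, the prostaglandin-degrading enzyme Hpgd at 2.45, 1.55 and 1.93 CPM, and the mesenchymal factor Tcf21 at 2.7, 1.88 and 1.68 CPM. Insl3 was singled out after its values were seen. Without replicate 1 there were 6 expressed theca markers.

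Mesenchymal and contractile markers were high. Of 12 stroma and fibroblast markers 11 (91.7%) were expressed, against 49.6% of all genes. They were led by Col1a1 (884 ± 264 TPM), Col1a2 (273 ± 76), Col3a1 (246 ± 70.1), the proteoglycans Dcn (128 ± 21.6) and Ogn (74.6 ± 22.4), and Mgp (56.7 ± 20.5), an inhibitor of calcification. Of 12 smooth muscle and pericyte markers 9 (75%) were expressed, also above the share of all genes. Smooth muscle actin Acta2 was at 3032, 1948 and 1581 CPM and its partner Tagln at 2173, 1145 and 970 CPM. The actin Actg2, whose reads may be partly shared with Acta2, was at 293, 172 and 155 CPM, the intermediate filament Des at 471, 279 and 253 CPM, Cnn1 at 224, 142 and 123 CPM and the adhesion molecule Mcam at 195, 209 and 166 CPM. The pericyte genes Rgs5 (18, 7 and 9 counts), Kcnj8 (12, 4 and 2) and Abcc9 (13, 16 and 24) were below the threshold, and these 3 were picked out after their values were seen. The summed level of this list was 6513, 4088 and 3436 CPM, and of the stroma list 2787, 3637 and 3560 CPM. Several of these genes, such as the collagens and Acta2, are also made by cultured cells of other types. The part of such cells in the results above was not tested.

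Of the 11 surface epithelium markers in the files 9 (81.8%) were expressed, against 49.6% of all genes. The median of these 9 was 38.7, 32.6 and 27 TPM, beside 24.2, 33.2 and 33.3 over all expressed genes, and so below it in replicates 2 and 3. The 9 were led by the keratins Krt18 (321, 148 and 143 CPM) and Krt8 (180, 94.8 and 92 CPM), which granulosa cells can also make. The uroplakin Upk3b was at 55.7, 62.6 and 61.1 CPM, Upk1b at 30.6, 22.1 and 22.7 CPM, mesothelin (Msln) at 32.6, 23.6 and 19.1 CPM and Krt19 at 22.1, 11.2 and 8.34 CPM. Of 12 Sertoli cell markers, 5 (41.7%) were expressed, near the share of all genes, and Clu made up 98.9%, 98.3% and 98.4% of their summed CPM. Fgf9 was at 32.5, 26.9 and 25.5 CPM, the transcription factor Sox9 at 10, 16.3 and 15.1 CPM, Sox8 at 5.85, 8.36 and 5.58 CPM, and the Hedgehog ligand Dhh at 10, 9.69 and 7.5 CPM. Ptgds had 77, 31 and 20 counts, and Dmrt1, the factor that maintains male identity, had 0 counts. Without replicate 1, and also without replicate 3, there were 6 expressed Sertoli cell markers.

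**Figure D5:**
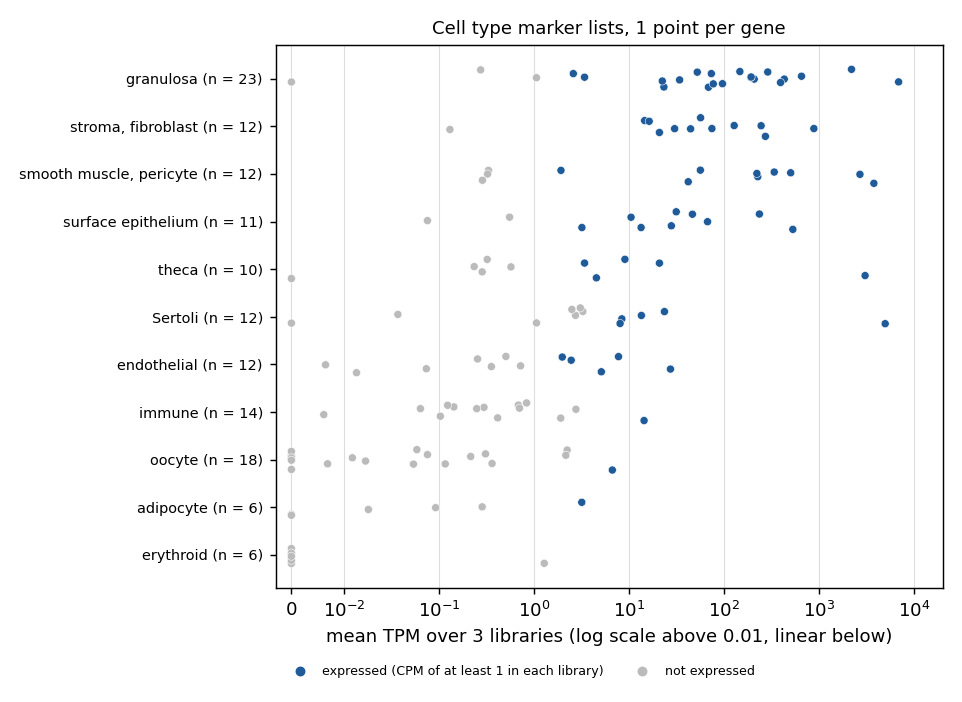
Marker lists of 11 cell types in the scramble libraries, with 1 point per gene at its mean TPM over 3 libraries, on an axis that is logarithmic above 0.01 and linear below. Blue genes reached 1 CPM in each library and grey genes did not. Granulosa, stroma and smooth muscle markers lie mostly to the right, and oocyte, immune, adipocyte and erythroid markers mostly to the left, while the theca and Sertoli lists have 1 point each far to the right, Aldh1a1 and Clu.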

How the data were processed

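mRNA was measured in 3 libraries of scramble-treated granulosa cells, each made from 1.3 µg of RNA by a TruSeq stranded kit and sequenced as single 75-base reads, per the labels' protocols. The authors deposited 1 raw count per gene symbol and library, together with ERCC spike-in lines. Per the submitters' processing notes, TopHat2 and featureCounts 1.5.0-p2 were used on the build mm10, along with cutadapt 1.9.1, FastQC 0.11.5 and bcl2fastq 2.15.0. Settings, annotation and strand option were not given in the sources used here. If strand was ignored, reads of overlapping antisense genes are mixed.

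From these counts, the 92 ERCC lines were dropped and CPM was computed per library. TPM used the exonic length merged over the transcripts of each gene in GENCODE M21 (mm10). A length was found for 23670 genes by symbol and for 438 by a RefSeq synonym. The 382 without one held 0.529%, 0.241% and 0.193% of the counts. GC content is that of the longest transcript, and was looked at after the values were seen. The files hold 0 genes encoded by mitochondrial DNA. Shares of counts have Wilson 95% intervals of at most 0.015 percentage points on either side, and a gene at 0 counts allows up to 3 counts (0.0919, 0.111 and 0.126 CPM in replicates 1, 2 and 3). Both cover counting error only.

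The 3 libraries are 1 group, so nothing was tested and no p-value was computed. The 25 gene lists hold 428 genes, of which 426 are in the files (Sts and Muc16 are not in them), and 336 were expressed. The members and lists were chosen with earlier results of these data known. All steroid synthesis genes, hormone receptors and the 5 markers are named, as are the 6 members of each other list with the highest mean TPM, members of other cell type lists at 0 counts, the 20 highest genes by CPM and by TPM (leaving out predicted genes and pseudogenes), and the 10 highest transcription factors. A few of these members are not reported here. Alternatives covered the threshold for expression, TMM and median-of-ratios scaling, transcript length and each left-out library. Computation used Python 3.11.15, numpy 2.4.6, pandas 2.3.3, scipy 1.17.1 and matplotlib 3.10.9, and the steps were tested on simulated data. The other samples of the series and the authors' table of comparisons were not used here.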

Additional observations from a re-analysis of the deposited data

Results flagged for a closer look

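ERCC spike-in sequences, artificial RNAs that the description above leaves out, took 0.788% of all counts in replicate 1 (Wilson 95% interval 0.7848% to 0.7908%), 0.299% in replicate 2 (0.2969% to 0.301%) and 0.45% in replicate 3 (0.4476% to 0.4529%). This is a signal outside the measured genes, with 76, 65 and 67 of the 92 sequences counted at least once. The amount added to each sample is not given in the sources used here.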

How the results depend on the processing

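The number of expressed genes stayed within 1.5 times 12150 under each alternative, from 12138 with median-of-ratios scaling to 17794 with at least 1 count in any library, and was 12209 to 12399 without 1 replicate. TMM and median-of-ratios scaling moved none of 417 gene levels beyond the SD over the libraries, which replicate 1 widens. Leaving out 1 replicate moved the mean CPM of 2 of 346 expressed genes looked at by over 1.5 times, both without replicate 1: Rn45s from 2283 to 1209 and Cdkn2a from 7.93 to 4.94. A mean over 3 libraries cannot rise by more than 1.5 times when 1 is left out. Genes low in replicate 1 could therefore not be among those counted. The mean of Inhba rose from 312 to 459 CPM without replicate 1. TPM from the longest transcript moved 148 of 416 gene levels and the median of the cell cycle list, from 74.3 to 93.3 TPM. Medians over all members in the files, instead of the expressed ones, fell from 204 to 138 TPM for steroid synthesis, from 33.7 to 23.4 for ligands, from 36.4 to 25.4 for ovulatory genes, from 27 to 15.1 for hormone receptors and from 50.6 to 11 for integrins, since genes near 0 then enter. Without 1 replicate, expressed oocyte markers numbered 1 to 2 and immune markers 1 to 3, both highest without replicate 3. The integrin median was 33.4 to 44.7 TPM, lowest without replicate 1, when 16 members instead of 14 passed the threshold. Counts and levels cannot be negative, so only the median log2 ratios of replicate 1 to replicates 2 and 3 could change sign. With the longest transcript these were 0.85 in the shortest length class and −0.92 in the longest. With at least 10 counts in every library they were 0.80 and −0.79, so neither median changed sign. Totals without mitochondrial genes were not run, because the files hold none. No paired analysis was possible because the 3 libraries are 1 group. Depth limits the near-absent genes: at under 10 counts a library, an order between genes cannot be read.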

Other observations

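The genes of this paragraph lie outside the lists and were picked from the 60 with the most reads after their values were seen. The endoplasmic reticulum chaperones Hspa5, Hsp90b1, Calr and Pdia3 were at 1510 ± 57.5, 1868 ± 150, 2024 ± 150 and 1824 ± 124 TPM (n = 3). The prohormone-processing carboxypeptidase Cpe was at 1531, 1139 and 1124 CPM in replicates 1, 2 and 3. The actin-binding proteins Tpm1 and Actn1 were at 2540, 1838 and 1712 CPM and at 1188, 1911 and 1792 CPM, and the matrix receptor Dag1, dystroglycan, at 1044, 2113 and 2071 CPM. The taurine transporter Slc6a6 was at 998, 2303 and 2234 CPM, and the hyaluronan-degrading protein Cemip at 829, 1919 and 1757 CPM.

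Replicate 1 held genes that were far lower than others of their length. Of 12097 expressed genes with a length, 613 (5.07%) were more than 2-fold below the median of their length class and 494 (4.08%) more than 2-fold above it. Zbed6, a gene-regulating protein that lies within the intron of another gene, was lowest among those picked out, at 1.68 CPM against 129 and 155 CPM. The ubiquitin ligase Cbl was at 1.59, 43.7 and 45.4 CPM, the poly-ADP-ribose polymerase Tnks at 7.57, 140 and 152 CPM, and the nuclear receptor corepressor Nrip1, which is needed for ovulation in mice, at 3, 61.7 and 68.3 CPM. Malat1, a long nuclear noncoding RNA, was at 504, 1785 and 2998 CPM, and so also differed between replicates 2 and 3. Within the shortest length class, the median log2 ratio of replicate 1 to replicates 2 and 3 was 0.46 for genes of the lowest of 5 GC classes and 0.94 for those of the highest. In the longest class, these medians were −0.83 and −0.67. What set these genes apart was not tested.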
